A study of Bos taurus with 8 samples.

Results

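Myeloid cells are the macrophages, monocytes, neutrophils and their relatives that patrol tissue, engulf debris and bind antibody-coated particles. In the mammary gland, macrophages lie in the stroma and within the epithelium, and they clear cells and milk remnants when the gland regresses. Their surface receptors often have no signalling tail and depend on small adapters, which carry an immunoreceptor tyrosine-based activation motif (ITAM) that SRC family kinases phosphorylate. The genes described here are 9 markers of such cells: MPEG1, ITGB2, CD68, CD163, CSF1R, TYROBP, FCER1G, FGR and LYVE1. A gene was taken as measured where the array annotation gave a probe set that symbol and no other, a probe set being a group of short probes for 1 transcript. This gave 8 of the 9 genes, from 9155 genes named on the array, through 9 probe sets of which LYVE1 had 2. CD163, the scavenger receptor for haptoglobin and haemoglobin complexes, had no such probe set and was not analysed here.

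The samples were taken from lactating udder tissue of 4 Holstein cows (Bos taurus). Every animal contributed a full sample, 12 h after milk was removed, and an empty sample, 0 h after removal, and no further treatment is given in the labels. The 8 RNA samples went onto 8 single-colour arrays, and levels are log2 values made by the authors with RMA, which corrects, normalizes and summarises the probes. The labels used here give no age, no order of the biopsies and no position in the udder. The question was how the accumulation of milk affects expression, on which the within-cow comparison of the full with the empty state bears. Time since milk removal changed together with the state, so the comparison cannot isolate milk accumulation. A biopsy is a mixture of cell types, so fewer cells of a type and less RNA per cell cannot be told apart.

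Arrays give no read depth, and precision is limited by their number. The milk-secreting epithelium was represented in every library, with log2 levels of 6 milk protein genes between 13.18 and 14.43, the top of the measured range. A library's median correlation with the other arrays was 0.969 for the full sample of cow 2 and 0.9753 for that of cow 4, and at least 0.9856 for the remaining libraries. The actin control probe set at the 5' end lay 1.36 log2 below the one at the 3' end in the full library of cow 4 (a 5' minus 3' difference of -1.36). In the other libraries that difference was within -0.07 to 0.07. This measure of RNA integrity moved with the results of cow 4 below, and its part in them was not tested. The members' differences are therefore also given without cow 4, or without cows 2 and 4.

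No myeloid marker passed the test, but 6 of the 8 had their highest level of all libraries in the full gland of cow 4, which was the highest library for 17.6% of all probe sets. In limma with cow as a block, adjusted over 24016 probe sets, 0 members were called higher and 0 lower, against 0% of all probe sets, and every member had an adjusted p of 0.993. At an unadjusted p under 0.05 there were 2 members, FGR and LYVE1, where 2.5% of all probe sets lay under it. On average 7 members were higher in full gland and FGR was lower, and 49.9% of all probe sets were higher. The median full minus empty difference of the members was 0.19 log2, against -0.0036 over all genes. By cow that median was -0.36, 0.37, -0.17 and 0.84 in cows 1 to 4, so the animals did not share a direction. The median was -0.03 without cow 4 and -0.23 without cows 2 and 4. The full and empty levels overlapped for all 8 members, while 0.812% of all probe sets had groups that did not overlap.

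MPEG1 encodes perforin-2, a pore-forming protein with which macrophages attack engulfed bacteria. Its log2 level in full gland was 8.22, 8.84, 7.67 and 9.58 in cows 1 to 4, and in empty gland 8.60, 8.40, 7.77 and 8.29. The full library of cow 4 was the highest of the 8 and that of cow 3 the lowest, and the groups overlapped. Full gland had a mean of 8.58 ± 0.82 and empty gland of 8.26 ± 0.35 (SD, n = 4). The difference was 0.32 ± 0.27 log2 (SE, n = 4 cows), where every SE is limma's, which borrows spread from other probe sets. Cow by cow the differences were -0.37, 0.44, -0.10 and 1.29, with a mean of -0.011 when cow 4 was left out.

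CD68 is a glycoprotein of macrophage lysosomes and a usual histological marker of these cells. Its log2 level was 7.11, 7.49, 7.15 and 8.48 in the full gland of cows 1 to 4, and 7.86, 7.08, 6.82 and 7.07 in the empty gland. The highest value was again the full library of cow 4, but the second highest was the empty library of cow 1. The full minus empty difference was 1.41 in cow 4 and -0.76 in cow 1, the widest span among the members. Its mean was 0.35 ± 0.32 log2 (SE, n = 4 cows), and 3 of the 4 cows were higher in full gland. Without cow 4 the mean difference was -0.0062.

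CSF1R is the receptor for CSF1 and IL34, the growth factors on which macrophages depend for survival. Full gland had log2 levels of 8.55, 9.31, 8.14 and 9.51 in cows 1 to 4, and empty gland 8.94, 8.83, 8.36 and 8.66. The full libraries of cows 2 and 4 lay above every empty library, and those of cows 1 and 3 lay below the empty library of the same cow. The difference was 0.18 ± 0.22 log2 (SE, n = 4 cows), with a 95% interval from -0.36 to 0.72. Without cow 4 it was -0.045. CSF1 differed by 0.29 and IL34 by -0.02, neither of which passed (limma adjusted p = 0.993 and 0.994). By cow, CSF1 differed by -0.12, 0.54, 0.09 and 0.65.

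ITGB2 is the beta2 integrin chain (CD18), which pairs with alpha chains on all leukocytes and binds intercellular adhesion molecules. Its log2 level was 7.93, 8.19, 7.68 and 8.60 in the full gland of cows 1 to 4, and 8.07, 7.86, 7.87 and 7.83 in the empty gland. The empty libraries spanned only 0.24 log2 and the full libraries 0.92. The mean difference was 0.19 ± 0.17 log2 (SE, n = 4 cows), with cow 4 at 0.77 and cow 3 at -0.19. Without cow 4 it was 9.8e-04.

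The partners of ITGB2 were measured through 9 genes, of which 7 were higher and 2 lower on average and none passed. The alpha chains ITGAL and ITGAD differed by 0.20 and 0.23 and were higher by 0.94 and 0.90 in cow 4. ITGAM, the alpha chain of myeloid cells, was dim at 5.29 in both states. ICAM3, a ligand, was higher in all 4 cows, by 0.22 on average, and ICAM1, the ligand on endothelium, by 0.23 with 3 of 4 cows. FERMT3, which activates the integrin from inside the cell, differed by -0.28 in cow 1, by 0.70 in cow 2 and by 0.81 in cow 4. The 9 genes had a median of 0.20 log2, and of -0.20, 0.30, -0.05 and 0.46 in cows 1 to 4.

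**Figure D1:**
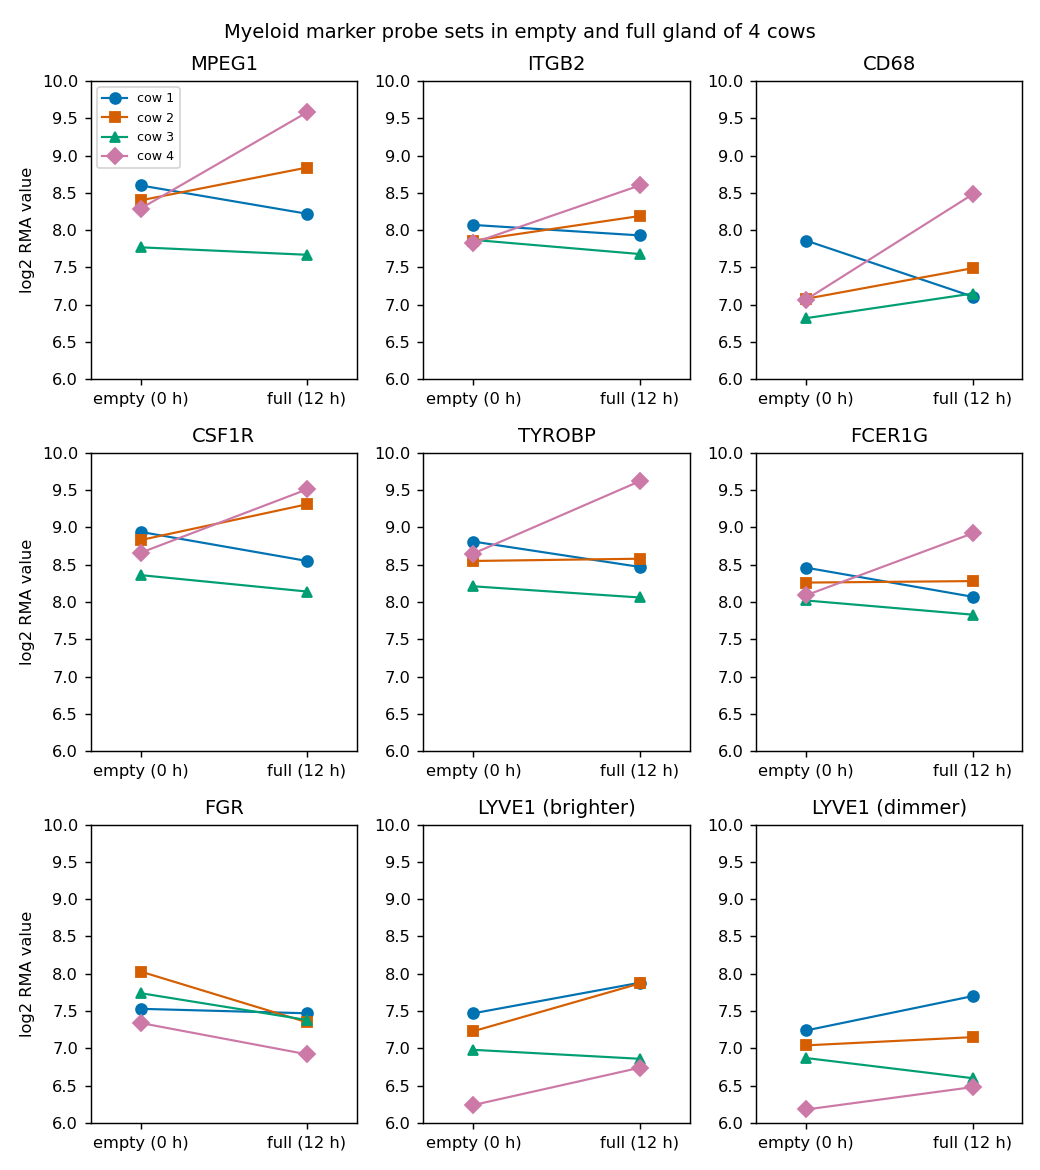
Each panel plots the log2 RMA value of 1 probe set (vertical axis) in empty (0 h) and full (12 h) gland, with a line joining the samples of a cow. In 6 of the 9 panels the full sample of cow 4 is the highest point. FGR is the panel in which all 4 lines run down, and for each LYVE1 probe set the order of the cows is the same in both states.

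TYROBP, also called DAP12, is an ITAM adapter for activating receptors of myeloid and natural killer cells. Its log2 level in full gland was 8.47, 8.58, 8.06 and 9.62 in cows 1 to 4, against 8.81, 8.55, 8.21 and 8.65 in empty gland. The full library of cow 4 lay 0.97 above its own empty library, and the other 3 cows differed by -0.35, 0.03 and -0.15. The mean difference was 0.13 ± 0.22 log2 (SE, n = 4 cows), and -0.15 without cow 4.

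FCER1G, the common Fc receptor gamma chain, is the ITAM adapter that receptors for IgG and IgE share, and mast cells and natural killer cells carry it as well. Full gland had log2 levels of 8.07, 8.28, 7.83 and 8.92 in cows 1 to 4, and empty gland 8.46, 8.26, 8.02 and 8.09. The pattern was that of TYROBP, with a difference of 0.82 in cow 4, 0.02 in cow 2, and -0.39 and -0.19 in cows 1 and 3. The mean difference was 0.07 ± 0.20 log2 (SE, n = 4 cows), and -0.18 without cow 4. Among 6 Fc receptor genes, 3 were higher and 3 lower on average and none passed. FCGR1A, the high-affinity IgG receptor that signals through this chain, was chosen after its values were seen. It was higher by 1.08 in cow 4 and differed by -0.54, 0.08 and 0.16 in cows 1 to 3. FCGRT, the neonatal Fc receptor that carries IgG across cells, differed by 0.24, and FCGR2B, the inhibitory IgG receptor, by -0.15. In cow 4, 4 of the 6 were higher, while FCGR2B, the brightest gene of the list, differed by -0.41. FCGR2B had mean log2 levels of 11.81 in full and 11.96 in empty gland, and which cells its signal came from was not tested. Of the 6 genes, 3 lay below the median of every array in all libraries, which limits these counts.

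FGR was the only member that was lower on average in full gland. It is a SRC family kinase of myeloid cells that acts below the integrins and Fc receptors. Its log2 level was 7.47, 7.35, 7.38 and 6.92 in the full gland of cows 1 to 4, and 7.53, 8.03, 7.74 and 7.34 in the empty gland. Each full library lay below the empty library of its cow, by -0.06, -0.68, -0.37 and -0.42 as full minus empty, although the groups overlapped. Of all probe sets, 5.97% were lower in all 4 cows. The full library of cow 4, highest for 6 members, was the lowest of the 8 for FGR, as for 15.1% of all probe sets. Full gland had a mean of 7.28 ± 0.25 and empty gland of 7.66 ± 0.30 (SD, n = 4), a difference of -0.38 ± 0.11 log2 (SE, n = 4 cows). The 95% interval ran from -0.65 to -0.11 before adjustment, at an unadjusted p of 0.0146 in limma that 105 other probe sets came below. It did not pass (limma adjusted p = 0.993), and the difference was -0.37 without cow 4 and -0.21 without cows 2 and 4.

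Of the kinases and partners that act with FGR and the adapters, 9 genes were measured, 6 higher and 3 lower on average, and none passed. PTPN6, the phosphatase SHP-1 that restrains ITAM signalling, differed by -0.20 and was lower in all 4 cows. BTK, a kinase of B and myeloid cells, was higher by 0.33 on average and in 3 of 4 cows. LYN, another SRC family kinase, differed by 0.02, and SYK, which docks on phosphorylated ITAMs, by 0.15. The 9 genes had a median of 0.01 in cow 4, where the members had 0.84, and of 0.02 over the cows. Of these 9, 4 lay below the median of every array in all libraries, which limits the contrast with the members. In cow 4, 6 of the 9 were higher, but only BTK, at 0.75, was more than 1.5-fold higher.

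LYVE1 is a hyaluronan receptor of lymphatic endothelium and of a class of tissue macrophages, so it does not mark myeloid cells alone. The brighter probe set had log2 levels of 7.88, 7.87, 6.86 and 6.74 in the full gland of cows 1 to 4, and 7.47, 7.23, 6.98 and 6.24 in the empty gland. Cow 4, which had the highest mean of both samples for 6 other members, had the lowest LYVE1 in both states, and cow 1 had the highest in both. The full minus empty difference was 0.42, 0.64, -0.12 and 0.50, with a mean of 0.36 ± 0.13 log2 (SE, n = 4 cows) and a 95% interval from 0.03 to 0.69 before adjustment. The unadjusted p was 0.0376 and the limma adjusted p 0.993, so LYVE1 did not pass, and the mean difference was 0.31 without cow 4.

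The dimmer LYVE1 probe set had the same direction in each cow. Its levels were 7.70, 7.15, 6.60 and 6.48 in full gland and 7.24, 7.04, 6.87 and 6.18 in empty gland. The differences were 0.46, 0.12, -0.27 and 0.30, with a mean of 0.15 ± 0.13 log2 (SE, n = 4 cows), and the order of the 4 cows was the same in both states.

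Lymphatic endothelium was represented by 7 genes, 4 higher and 3 lower on average, with a median of 0.05 log2 and none passing. PDPN, podoplanin, differed by 0.29 and TFF3, which epithelium also secretes, by -0.38. The summed linear signal of these 7 genes was 3451 to 4459 over the full and 3863 to 4235 over the empty libraries, of which TFF3 made up 29.2% to 62.4%. Without TFF3 it was 1563 to 2588 and 1487 to 2294. Among 9 hyaluronan genes, HMMR, an intracellular hyaluronan-binding protein of dividing cells, differed by 0.26 and was higher in all 4 cows, and the hyaluronidase HYAL2 differed by -0.15 and was lower in all 4. CD44, the main hyaluronan receptor of leukocytes and epithelium, was higher by 1.10 in cow 4 and differed by -0.57 in cow 1. No gene of this list passed, and 6 were higher and 3 lower.

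**Figure D2:**
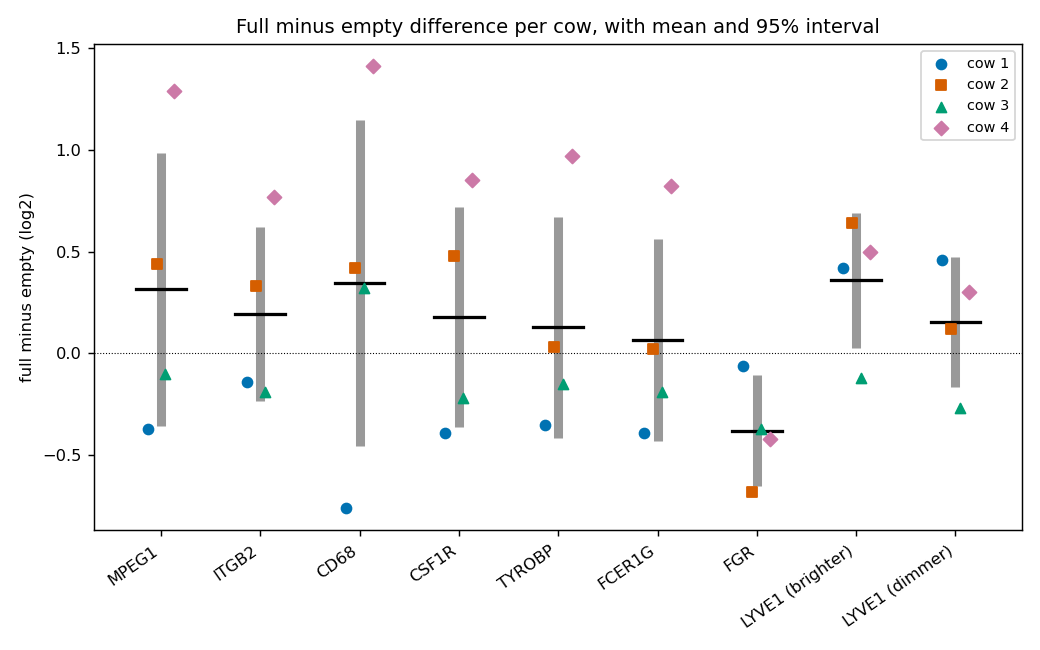
The full minus empty difference in log2 (vertical axis) is shown for each probe set as 1 point per cow, with the mean as a black line and limma's 95% interval, not adjusted for multiple tests, as a grey bar. Cow 4 is at 0.77 to 1.41 for 6 genes and at -0.42 for FGR, and the bars of FGR and of the brighter LYVE1 probe set do not reach 0.

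The spread between animals had its smallest unadjusted p, among the members, for LYVE1. The mean of the full and empty levels of a cow spanned 1.19 log2 for the brighter LYVE1 probe set, from 6.49 in cow 4 to 7.67 in cow 1, against a full minus empty difference of 0.36. An F-test in limma for any difference between cows gave an unadjusted p of 0.00267 and an adjusted p of 0.147. None of the 8 members passed that test, which 0.437% of all probe sets passed. MPEG1 had a span between cows of 1.21, from 7.72 in cow 3 to 8.94 in cow 4, with an adjusted p of 0.392. ITGB2 had the narrowest span at 0.44. This test compares the 4 animals, each with a pair of samples.

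The members varied more among full than among empty libraries. The median SD of the 8 members was 0.63 log2 over the 4 full and 0.28 over the 4 empty libraries, while over all genes it was 0.20 and 0.13. A wider range in full gland was found for 6 of 8 members and for 73.8% of all probe sets, so that share is near the background. In cow 4, 6 of 8 members were more than 1.5-fold higher in full gland, against 5.3% of all probe sets, and 2 of them, MPEG1 and CD68, more than 2-fold, against 1.1%. MPEG1, ITGB2, CSF1R, TYROBP and FCER1G were lower in cows 1 and 3 and higher in cows 2 and 4, as were 13.8% of all probe sets. The markers were proposed with these results known, so these shares are a description.

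Pearson correlation over the 8 arrays, which share 4 cows, set each member against the mean of the others. It was 0.93 for MPEG1, CSF1R and FCER1G, 0.92 for ITGB2, 0.83 for TYROBP and 0.80 for CD68, but 0.06 for LYVE1 and -0.53 for FGR. Outside the members, 6192 genes above the median level were searched for the profile most like the members' mean. The nearest were DCN, a stromal proteoglycan, at 0.989, STRN3, a striatin, at 0.989, CTSH, a lysosomal cathepsin, at 0.988 and ANTXR2, an anthrax toxin receptor, at 0.987. PLAGL1, PAQR6, CD48, FXYD1, ZNF3 and CETN3 followed at 0.965 to 0.973. CTSH differed by -0.38, 0.41, -0.16 and 1.04 in cows 1 to 4, and DCN by -0.17, 0.17, -0.09 and 0.61. The median of all probe sets was 7.13 in the empty and 7.24 in the full library of cow 4.

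Other macrophage and monocyte genes were on average higher in full gland in 19 of 21 cases, and none passed. The median was 0.09 log2, and -0.18, 0.10, -0.12 and 0.68 in cows 1 to 4, and it was -0.05 without cow 4. CD14, the lipopolysaccharide co-receptor, differed by -0.35 on average and by -0.97 in cow 2, opposite to most members there. Its mean log2 level was 10.50 in full and 10.85 in empty gland, above CSF1R, the brightest member, at 8.88 and 8.70. Which cells the CD14 signal came from was not tested. TIMD4, a phosphatidylserine receptor of resident macrophages, differed by 0.28 and was higher in 3 of 4 cows. Among genes chosen after their values were seen, the complement subunits C1QA and C1QB were higher by 0.88 and 0.85 in cow 4. They differed by -0.49 and -0.39 in cow 1, by -0.25 and -0.31 in cow 2, and by 0.19 and 0.09 in cow 3. In cows 2 and 3 their sign was opposite to that of the members' median. GPNMB, a glycoprotein of lipid-laden macrophages, differed by -0.24, 1.03, -0.49 and 1.62 in cows 1 to 4, with a mean of 0.48. The full library of cow 4 was the highest of the 8 for 14 of these 21 genes, against 17.6% of all probe sets.

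Neutrophil genes were mostly dim. Of 24 measured, 15 lay below the median of every array in all 8 libraries, among them MPO, ELANE and CXCR1, and ITGAM was also below it. On average 14 were higher and 10 lower, with a median of 0.02 log2 over the cows and 0.08 in cow 4. That median is set largely by dim genes. The full library of cow 4 was the highest of the 8 for 10 of the 24, against 17.6% of all probe sets. In cow 4, 6 of the 24 were more than 1.5-fold higher, against 5.3% of all probe sets. CATHL5, an antimicrobial cathelicidin, differed by -0.45 and was lower in all 4 cows, and OLR1, a receptor for oxidised lipoprotein, was higher by 1.68 in cow 4 with a mean of 0.49. The summed linear signal of the list was 2054 to 3696 over the full and 2221 to 2540 over the empty libraries. Mast cell genes were measured through FCER1A, HDC and KIT, with summed signals of 956 to 2045 in full and 873 to 1142 in empty gland. KIT, which luminal epithelium also expresses, made up 86.6% to 93.8% of that sum, and without it the sums were 117 to 144 and 104 to 137. KIT differed by 0.28, and HDC, the histamine-forming enzyme, by 0.10 at a dim level. Of the dendritic cell genes only CD1B and LAMP3 were measured, both dim, differing by 0.17 and 0.10.

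Myeloid transcription factors were measured through 6 genes, 4 higher and 2 lower, with KLF4 at 0.26 and GFI1, a dim gene, at 0.12. Genes of haptoglobin and haemoglobin clearance numbered 8, of which 7 were higher on average. HPX, hemopexin, was higher in all 4 cows, by 0.17 on average, but at dim levels of 5.83 to 6.18. HP, haptoglobin, was higher by 0.53 on average but by 1.14 in cow 2 and 1.29 in cow 4. Of the growth factor and receptor genes around CSF1R, 4 of 8 were higher and 4 lower. No gene of these lists passed.

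Some other lists also had clearly positive medians in cow 4, while that of the luminal list was -0.0035 and that of red cell and platelet genes -0.07. Leukocytes in general include myeloid cells. All 13 genes of leukocytes in general were higher on average and more than 1.5-fold higher in cow 4. Their median was 0.83 there, and -0.22, 0.22 and -0.04 in cows 1 to 3. PLEK and CORO1A, cytoskeletal proteins of blood cells, differed by 0.36 and 0.25. The summed linear signal of the 13 genes was 3963 to 7306 in full and 4214 to 5474 in empty gland, and that of the 8 members 1609 to 3741 and 1791 to 2542. The 12 genes of fibroblasts and matrix had a median of 0.63 in cow 4 and summed signals of 17934 to 40880 in full and 19534 to 28691 in empty gland, with PDGFRA at 0.42 and THY1 at -0.22 over the cows. The 10 myoepithelial genes had a median of 0.67 in cow 4 and summed signals of 13483 to 27365 and 14533 to 18598, with KRT17 at 0.20 and CNN1 at 0.30. The part of these cells in the results of cow 4 was not tested.

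The 20 genes of T and natural killer cells had medians of 0.31 in cow 4 and 0.10 over the cows, with PRF1, perforin, at 0.36 and CD8A at 0.31. On average 16 of them were higher and 4 lower. Their summed signals were 3997 to 5784 in full and 5320 to 6398 in empty gland. ZAP70, a kinase of the T cell receptor that differed by -0.30, made up 43.8% to 68.5% of each sum. Its mean log2 level was 11.56 in full and 11.87 in empty gland, far above CD8A at 7.78 and 7.48. Which cells the ZAP70 signal came from was not tested. Without ZAP70 the sums were 1769 to 2371 and 1774 to 2207. The 7 genes of B and plasma cells had a median of 0.30 in cow 4 and summed signals of 3228 to 4797 and 3740 to 4929, with MS4A1 at 0.19 and POU2AF1 at 0.17. JCHAIN, the joining chain of secreted antibodies, differed by -0.0069 and made up 85.2% to 90.7% of those sums, which without it were 418 to 687 and 441 to 605. Blood endothelium genes (11) were lower in 9 cases, with a median of 0.12 in cow 4 and summed signals of 5493 to 7136 and 6431 to 7589. TEK and FLT1, receptors for angiopoietins and VEGF, differed by -0.22 and -0.16.

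Luminal and secretory epithelium genes (14) had a median of -0.0035 in cow 4 and summed signals of 123629 to 127082 in full and 119270 to 128979 in empty gland. That sum is carried by the 6 milk protein genes, whose probe sets lie at the top of the range, where a difference may not be measurable. The other 8 luminal genes, set apart after their values were seen, had medians of -0.01, 0.13, -0.0052 and 0.40 in cows 1 to 4 and of 0.20 over the cows, with summed signals of 30675 to 34052 in full and 29680 to 31567 in empty gland. In cow 4 the keratins KRT18, KRT8 and KRT7 differed by 1.36, 1.21 and 0.80 and the cadherin CDH1 by 0.57, while 3 of the 8 were lower there. Over the cows KRT18 differed by 0.61 and CDH1 by 0.20, and none of the 14 passed. Red cell and platelet genes (8) had a median of -0.07 in cow 4 and summed signals of 467 to 542 and 492 to 681, with AHSP at -0.11 and PF4 at -0.22. Of these 8 genes, 7 lay below the median of every array in all libraries, where a difference may be harder to see. Whether low levels hid a difference in these genes was not tested. The summed signal of the 8 genes in cow 4 was 504 in full and 492 in empty gland. Over the 203 genes of the 20 lists beside the members, 4 had an unadjusted p under 0.05 in limma and 0 passed after adjustment over all probe sets.

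**Figure D3:**
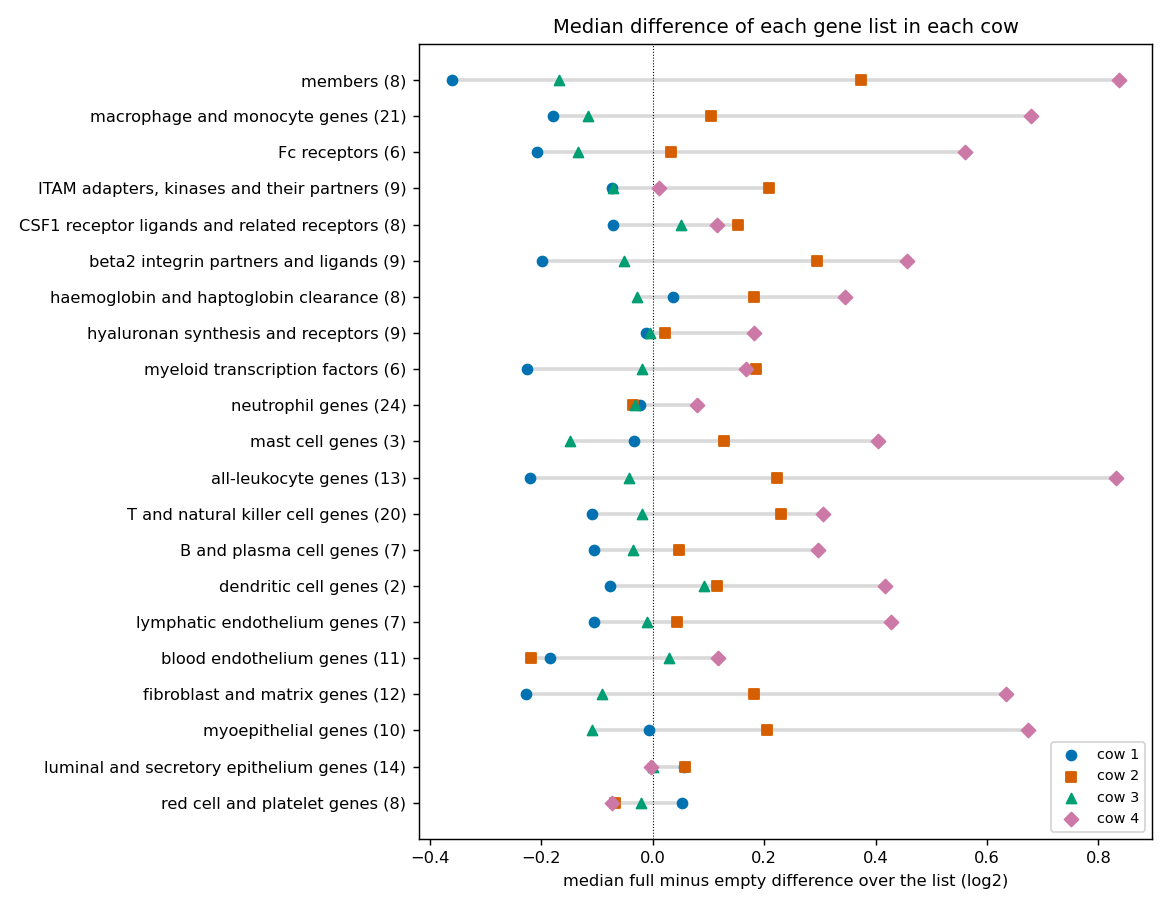
The median full minus empty difference in log2 (horizontal axis) of each gene list is shown as 1 point per cow, with the number of genes measured in brackets and a grey line over the range of the cows. Cow 4 lies furthest right for the members (0.84) and for the leukocyte genes (0.83). Lists with cow 4 within 0.08 of 0 include the ITAM partners (0.01), of which 4 of 9 genes are dim. The others are the dim neutrophil genes (0.08), the dim red cell and platelet genes (-0.07), and the luminal list (-0.0035). Milk protein genes at the top of the range are included in the luminal list.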

How the data were processed

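Per the submitters' processing notes, the deposited log2 values were made by the authors with RMA (version not given in the sources used here), 1 per probe set and array. RMA equalises the arrays' distributions and so hides any shift common to most genes. The log2 scale was read from the values, which span 4.98 to 14.43. Of 24128 probe sets, 112 controls were left out. Each gene was followed through the brightest probe set that the platform annotation gives its symbol alone, and 13263 of the 13292 probe sets with 1 symbol were matched to RefSeq by entrez number, with 0 symbols changed. Only gene names came from RefSeq, so no sequence or coordinate is shown.

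limma 3.58.1 in R 4.3.3 (lmFit, eBayes, two-sided) was fitted with state and cow as fixed terms, adjusted by Benjamini-Hochberg over 24016 probe sets, at a threshold of 0.05. The block rests on the sample descriptions, which number the cow of each sample; deviations from the group means correlated at 0.319 to 0.597 within cows. Nothing says that each state was biopsied more than once per cow. List summaries used pandas 2.3.3 and numpy 2.4.6. Summed signals add 2 to the power of each value. The fit was tested on simulated data.

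The members and lists were chosen with earlier results of these data known. Genes named are the members, from each list the 2 with the smallest unadjusted p, and the 10 most like the members in profile. ITGAL, ITGAD, ITGAM, FERMT3, IL34, FCGR1A, LYN, SYK, CD44, C1QA, C1QB, GPNMB, MPO, ELANE, CXCR1, FCER1A, ZAP70, JCHAIN, KRT7, KRT8, S100A8, S100A9, S100A12 and VNN2 were named after their values were seen. Alternatives covered the block, centring, normalization, a filter on dim probe sets, left-out cows, array weights, the prior, the threshold and averaged probe sets.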

Additional observations from a re-analysis of the deposited data

Results flagged for a closer look

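Groups of 4 libraries, or of 4 differences, were searched for a sample far from the others, and 4 of 107 were found, where chance gives about 1 in 20. The actin 5' minus 3' difference was -1.36 in the full library of cow 4, and the nearest full library was at -0.03. ITGB2 was at 8.07 in the empty library of cow 1 and at 7.87 or below in the other empty libraries. ICAM3 was at 8.80 in the full library of cow 2 and at 8.61 or below in the other full libraries. CORO1A was at 7.24 in the empty library of cow 3 and at 7.62 or above in the other empty libraries.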

How the results depend on the processing

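The calls were the same in every alternative run: 0 of the members and 0 of the tested probe sets passed in limma, the smallest adjusted p over all probe sets being 0.142, without cows 2 and 4. With no replicate block 0 probe sets passed, 220 had an unadjusted p under 0.05 against 600 with the block, and 0 members did against 2; the pairing by cow changed no call. The median difference of the members, 0.19 log2, was 0.17 after median centring, 0.18 after repeated quantile normalization and 0.02 with array weights. It ranged from -0.03 to 0.32 with 1 cow left out, the lowest without cow 4. With 1 cow left out, the difference ranged from -0.0062 to 0.72 for CD68, from -0.045 to 0.37 for CSF1R, from -0.18 to 0.22 for FCER1G, from -0.011 to 0.54 for MPEG1 and from -0.15 to 0.29 for TYROBP, each negative only without cow 4. Without cows 2 and 4 the differences were -0.22 for CD68, -0.31 for CSF1R, -0.29 for FCER1G, -0.16 for ITGB2, -0.24 for MPEG1 and -0.25 for TYROBP. With array weights they were -0.026 for CSF1R, -0.056 for FCER1G and -0.0016 for TYROBP. FGR and LYVE1 kept their sign in all 13 alternatives, but their unadjusted p in limma did not stay under 0.05 in each. For LYVE1 it was 0.0844 with averaged probe sets, 0.177 with array weights, 0.221 with cow as a random term and 0.335 with no block. Left-out cows gave LYVE1 0.104 without cow 1, 0.115 without cow 2, 0.123 without cow 4 and 0.298 without cows 2 and 4. For FGR it was 0.0511 without cow 4, 0.0574 with no block and 0.0841 without cows 2 and 4. With averaged probe sets 1 member had an unadjusted p under 0.05, against 2 in the main fit. Of 120 recomputed medians of the other lists, 30 changed sign, 17 of them without cows 2 and 4 and 8 without cow 4. Without the milk protein genes, an alternative chosen after seeing the data, the luminal list's median was 0.20 against 0.0018. The cause was not tested. All 8 probe sets that represent a member were among the brighter ones.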

Other observations

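Some genes of the neutrophil list varied widely between cows, and those given here were chosen after their values were seen. S100A8, a calcium-binding alarmin that epithelium can also make, had full minus empty differences of -0.08, 2.21, -0.77 and 0.57 log2 in cows 1 to 4, while its partner S100A9 differed by -0.22 in cow 2 and 0.11 in cow 4. S100A12 differed by 1.55 in cow 4 and by -0.75, -0.12 and -0.74 in cows 1 to 3. VNN2, a vanin, differed by 0.97 in cow 4 and -0.97 in cow 3. None of these passed in limma, where the adjusted p was 0.993 or above for each.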
